A study of Mus musculus with 8 samples.

Results

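The mitochondrial ribosome was represented by 75 genes, those whose symbol in the deposited annotation joins Mrpl or Mrps to a number and at most 1 further letter. The 75 symbols covered 87 rows of the table, and for the 11 genes with several rows the row of highest mean over all 8 arrays was used, which put 75 of 21759 genes in the set. By their symbols 46 belonged to the large subunit (Mrpl) and 29 to the small subunit (Mrps). Expression came from whole-transcript microarrays hybridised with total RNA of brown fat, the depot that burns fuel for warmth, taken from male C57BL/6 mice. The series title states the question as what a high-fat diet does to expression in this tissue. A group labelled HFD, for high-fat diet, held 4 arrays, and the comparison group, labelled NCD and not spelled out in the labels, also held 4. No transgene, deletion or drug is named for either group. The sources used here do not give age, length of feeding or diet composition. They do not state whether each array stands for 1 animal, so every p-value covers only the spread between these arrays, which may be technical.

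The mitochondrial ribosome is a separate protein-making machine inside the organelle. It translates the few messages of the mitochondrial genome, which encode core subunits of the respiratory chain and of ATP synthase, while its own proteins are encoded in the nucleus, made in the cytosol and imported. It descends from a bacterial ribosome, so some of its proteins have counterparts in bacteria and others exist only in mitochondria. The large subunit joins amino acids and holds the exit tunnel, and the small subunit reads the messenger RNA. Brown adipocytes are rich in mitochondria and oxidise fuel to make heat.

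Values are normalized log2 intensities. Each gene has its own probes, so apart from the cutoff given next, a higher value for a gene than for another was not read as more RNA. All 7 brown adipocyte markers, Ucp1 among them, lay above the 95th percentile of the 1119 olfactory receptor genes (6.46), used as a stand-in for unexpressed genes, and so did 69 of the 75 members. The arrays were not alike: the standard deviation over all rows was 1.82 on NCD 3 and 1.786 on NCD 2, against 1.70 on both other NCD arrays, and ran from 1.693 on HFD 1 to 1.776 on HFD 4. The mean over the 7 brown adipocyte markers was also highest on NCD 3 (10.23), with 9.93 to 10.23 in NCD and 9.86 to 10.01 in HFD. The 10 skeletal muscle markers averaged 9.08 on NCD 1 and 9.715 on HFD 3 but 5.23 to 5.77 on the other arrays. The 5 macrophage markers averaged 6.79 to 7.34 in NCD and 6.85 to 7.41 in HFD, and the 3 white adipocyte markers averaged 7.32 to 7.88 in NCD and 7.91 to 8.14 in HFD. The part of these cell types in the results was not tested, and in whole tissue fewer cells of a type and less RNA per cell cannot be told apart.

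The genes of the mitochondrial ribosome had slightly lower means in HFD almost throughout, and no single gene passed the test. Of the 75 members, 72 had a lower group mean in HFD, 45 of 46 in the large subunit and 27 of 29 in the small. Over all genes tested 52.5% had a lower mean, and over the genes above the olfactory 95th percentile 63.7%. The median difference, HFD minus NCD, was -0.20 on the log2 scale for the large subunit and -0.19 for the small, against -0.01 over all 21759 genes and -0.055 over the 7629 genes above the olfactory 95th percentile. Single differences ran from -0.565 for Mrpl50 to 0.02 for Mrpl49. In limma, with Benjamini-Hochberg adjustment over all genes and a threshold of 0.05, 0 members were called higher or lower, while 0.133% of all genes were called lower and 0.00919% higher. The smallest adjusted p of a member was 0.178 (Mrpl50), and the next was 0.342 (Mrpl22).

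Before adjustment, 20 members had a p under 0.05 in limma, all of them lower in HFD: 14 large subunit genes (30.4%) and 6 small subunit genes (20.7%). Over all genes that share was 4.52% for lower and 2.73% for higher genes, and over the genes above the olfactory 95th percentile it was 8.21% for lower ones. The count depended on single arrays: it was 12 without NCD 2 (3.35% of all genes being lower at that p), 10 without NCD 3 (3.64%) and 13 without HFD 1 (3.45%). It was 29 without NCD 4 (5.62%), 23 without NCD 1 (6.03%) and 22 without HFD 4 (4.87%). Without both NCD 2 and NCD 3 it was 4 (3.62%). For 12 members (8 large, 4 small, together 16%) every HFD array lay below every NCD array. That share was 2.5% over all genes and 4.63% over those above the olfactory 95th percentile. For 0 members the reverse held, against 1.33% and 1.19%. The methods' t-test was run here with equal variances, since the sources do not say which form the authors used. It also gave 20 members with an unadjusted p under 0.05, all lower, where 4.32% of all genes were lower at that p. After Benjamini-Hochberg adjustment it gave 0 members. The 95% interval of the difference lay within a 1.5-fold change in either direction for 62 of the 75 members, and the other 13 reached beyond 1.5-fold lower.

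**Figure D1:**
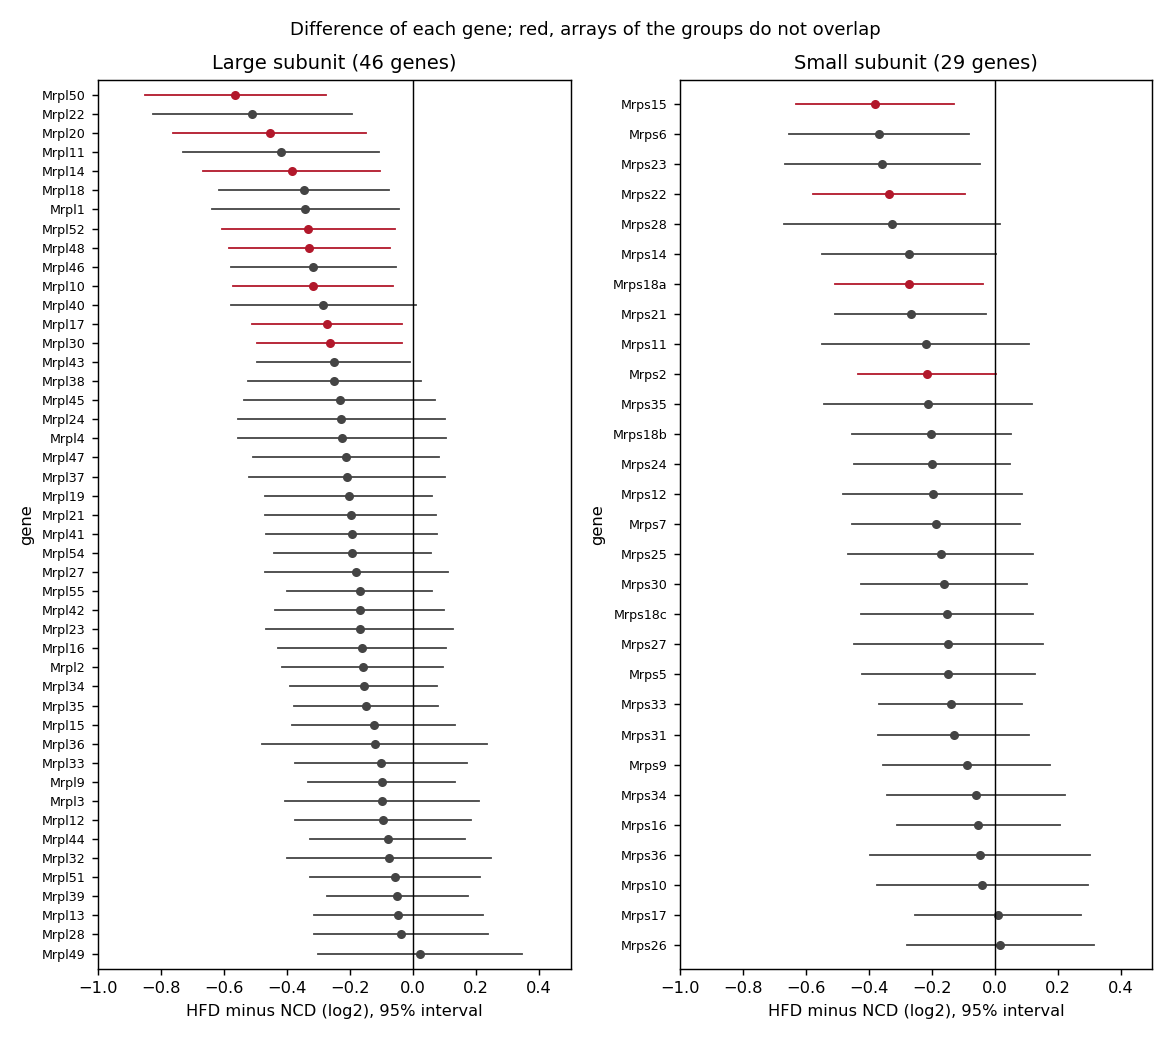
HFD minus NCD difference (log2) of each of the 46 large and 29 small subunit genes, with the limma 95% interval as a bar and the gene on the vertical axis. Red marks the 8 large and 4 small subunit genes whose groups did not overlap; 72 of 75 points lie left of 0, and 20 intervals exclude 0 before adjustment for the number of genes.

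Promoters of the members, which the choice of genes did not use, shared short motifs. RefSeq windows of assembly GRCm38.p6, from 250 bases before to 50 after the gene start, were matched by symbol for 66 of 75 members, with 1 window a gene. On either strand, the NRF1 consensus, in capitals in the Mrpl45 window and named for a regulator of nuclear genes for mitochondria, was found in 12 of 66 windows (18.2%) and in 4.78% of all 27025 promoter windows. CCGGAAG, a core of ETS factors such as GABPA, was found in 22 (33.3% against 9.12%), and AANATGGCG, of YY1, in 10 (15.2% against 2.51%). Most YY1 matches lay after the gene start, as in Mrps18a (at 11 from the start), while those of Mrpl36 (-31) and Mrps11 (-108) lay before it. At least 1 of the 3 motifs was present in 38 members (57.6% against 14.7%), 6 members held more than 1, and matches of different motifs overlapped in 0 windows. A match describes letters only and is not a measured site. Members with a motif had a median difference of -0.175 (38 genes) and those without one of -0.20 (28 genes), and by motif the medians were -0.0975 with and -0.20 without the NRF1 letters, -0.1975 and -0.18 for ETS, and -0.175 and -0.20 for YY1. The following windows are printed 5′ to 3′ on the strand of the gene with matches in capitals: the members of smallest p in each subunit, since their values are described next, then Mrpl45 and Mrps18a as cases of repeated and of mixed motifs. Mrpl50 lies at chr4:49521034-49521333 (minus strand) and Mrps15 at chr4:126046678-126046977 (plus strand), both without a match. Mrpl22 lies at chr11:58171414-58171713 (plus strand) and Mrps22 at chr9:98601630-98601929 (minus strand), each with 1 ETS match. Mrpl45, at chr11:97315466-97315765 (plus strand), holds 3 NRF1 matches, and its protein anchors the ribosome to the inner membrane. Mrps18a, at chr17:46110754-46111053 (plus strand), holds an ETS and a YY1 match.
Mrpl50: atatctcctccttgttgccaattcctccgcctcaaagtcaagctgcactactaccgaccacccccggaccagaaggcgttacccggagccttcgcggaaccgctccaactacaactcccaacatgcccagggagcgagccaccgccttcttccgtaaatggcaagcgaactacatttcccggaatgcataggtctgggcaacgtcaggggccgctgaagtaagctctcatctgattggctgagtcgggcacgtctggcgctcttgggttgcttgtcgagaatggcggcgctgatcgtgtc
Mrpl22: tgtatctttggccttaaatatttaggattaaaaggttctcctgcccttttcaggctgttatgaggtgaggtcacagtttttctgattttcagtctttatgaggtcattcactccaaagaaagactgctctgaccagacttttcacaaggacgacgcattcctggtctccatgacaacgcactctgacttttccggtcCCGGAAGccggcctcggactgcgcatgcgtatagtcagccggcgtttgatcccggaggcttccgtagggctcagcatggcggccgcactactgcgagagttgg
Mrps15: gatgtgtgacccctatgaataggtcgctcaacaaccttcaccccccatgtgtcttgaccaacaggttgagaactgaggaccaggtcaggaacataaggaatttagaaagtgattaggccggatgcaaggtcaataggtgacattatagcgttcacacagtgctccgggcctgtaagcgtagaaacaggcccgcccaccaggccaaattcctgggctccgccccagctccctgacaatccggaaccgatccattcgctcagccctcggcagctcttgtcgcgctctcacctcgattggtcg
Mrps22: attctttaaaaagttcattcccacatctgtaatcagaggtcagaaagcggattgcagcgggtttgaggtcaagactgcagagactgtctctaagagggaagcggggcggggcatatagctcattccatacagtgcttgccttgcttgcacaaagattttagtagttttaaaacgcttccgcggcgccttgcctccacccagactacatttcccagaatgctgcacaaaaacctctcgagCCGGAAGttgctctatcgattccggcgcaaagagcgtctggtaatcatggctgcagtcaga
Mrpl45: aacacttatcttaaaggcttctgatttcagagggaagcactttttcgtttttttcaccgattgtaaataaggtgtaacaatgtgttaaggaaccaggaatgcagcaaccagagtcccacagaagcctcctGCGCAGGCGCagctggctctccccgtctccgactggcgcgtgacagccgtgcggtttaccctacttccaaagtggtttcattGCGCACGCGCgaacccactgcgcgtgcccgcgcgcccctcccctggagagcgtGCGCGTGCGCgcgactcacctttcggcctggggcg
Mrps18a: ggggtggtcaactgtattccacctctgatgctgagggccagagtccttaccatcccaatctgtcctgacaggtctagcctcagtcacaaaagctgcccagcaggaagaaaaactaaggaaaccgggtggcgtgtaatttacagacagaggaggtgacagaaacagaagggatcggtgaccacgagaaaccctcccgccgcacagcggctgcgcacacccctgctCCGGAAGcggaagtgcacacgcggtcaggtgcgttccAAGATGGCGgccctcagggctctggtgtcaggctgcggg

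Among large subunit genes the biggest difference was that of Mrpl50, which encodes a protein with no bacterial counterpart. Its log2 level was 9.01, 9.56, 9.12 and 8.97 on NCD 1 to 4 and 8.46, 8.61, 8.64 and 8.69 on HFD 1 to 4. Every HFD array lay below every NCD array, and NCD 2 stood highest. NCD averaged 9.165 ± 0.27 (SD, n = 4), HFD averaged 8.60 ± 0.10 (SD, n = 4), and the difference was -0.565 ± 0.13 (SE), or 1.48-fold, with a 95% interval from -0.85 to -0.28 and a limma adjusted p of 0.178. Leaving out 1 array at a time gave -0.63 to -0.43, with limma adjusted p between 0.158 and 0.490. Without NCD 2 and NCD 3 the difference was -0.39 (limma adjusted p = 0.492). In the file, whose build is not named, the Mrpl50 row spans chromosome 4 from 49525468 to 49533955, the length of a gene; exon positions were not used here.

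Mrpl22, whose bacterial counterpart lines the exit tunnel for the growing chain, read 7.00, 7.16, 7.21 and 6.49 in NCD and 6.56, 6.45, 6.30 and 6.51 in HFD. NCD 4 lay among the HFD arrays, while the other NCD arrays stood above all of them. The difference was -0.51 ± 0.15 (SE), with a limma adjusted p of 0.342. Mrpl22 was the only member to pass under any alternative run: without NCD 4 it stood at -0.67 (limma adjusted p = 0.0442). Without NCD 2 and NCD 3 it was -0.29 (limma adjusted p = 0.769).

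Mrpl20, whose counterpart in bacteria binds ribosomal RNA early in assembly, read 6.30, 6.89, 6.80 and 6.32 in NCD and 6.00, 6.08, 6.19 and 6.22 in HFD. The groups did not overlap, yet NCD 1 and NCD 4 lay just above the highest HFD array, and the gene's mean over all arrays (6.35) lay under the olfactory 95th percentile, where the array may read background. The difference was -0.455 ± 0.14 (SE, limma adjusted p = 0.422), and -0.19 without NCD 2 and NCD 3.

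Mrpl11 encodes the counterpart of a protein at the base of the stalk where translation factors bind. It read 8.63, 9.06, 9.01 and 8.55 in NCD and 8.46, 8.19, 8.25 and 8.67 in HFD, so HFD 4 lay above both NCD 1 and NCD 4. The difference was -0.42 ± 0.15 (SE, limma adjusted p = 0.517). Mrpl14, of the face that meets the small subunit, read 6.72, 6.60, 7.18 and 6.77 in NCD and 6.39, 6.48, 6.31 and 6.55 in HFD. These arrays did not overlap, with NCD 3 highest, and the difference was -0.385 ± 0.13 (SE, limma adjusted p = 0.504).

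Mrpl18, whose bacterial counterpart sits in the central protuberance at the top of the subunit, read 8.90, 9.08, 9.23 and 8.68 in NCD and 8.68, 8.56, 8.56 and 8.70 in HFD. NCD 4 equalled HFD 1, and the difference was -0.35 ± 0.13 (SE, limma adjusted p = 0.547). The other large subunit genes without overlap were Mrpl10, Mrpl17, Mrpl30, Mrpl48 and Mrpl52, with differences from -0.33 to -0.265. Mrpl10 carries the stalk of the factor-binding site and read 8.19, 8.41, 8.40 and 8.10 in NCD and 7.77, 8.01, 7.96 and 8.09 in HFD. NCD 4 and HFD 4 were 0.01 apart, and the difference was -0.32 ± 0.12 (SE, limma adjusted p = 0.560).

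Mrpl30 showed the tightest HFD group of those 5, at 10.15, 10.18, 10.16 and 10.19, with NCD at 10.26, 10.55, 10.52 and 10.41. It encodes the counterpart of bacterial L30, and its difference was -0.265 ± 0.11 (SE, limma adjusted p = 0.617). Mrpl52, which has no bacterial counterpart, read 6.87, 7.13, 7.39 and 6.85 in NCD and 6.77, 6.78, 6.66 and 6.70 in HFD. NCD 3 and then NCD 2 stood above arrays that otherwise lay close together, and the difference was -0.33 ± 0.13 (SE, limma adjusted p = 0.586).

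At the other end of the large subunit stood Mrpl49, Mrpl28, Mrpl13 and Mrpl39, between -0.05 and 0.02. Mrpl39 read 10.65, 10.83, 10.71 and 10.67 in NCD and 10.68, 10.75, 10.58 and 10.65 in HFD. Those arrays overlapped throughout, and the 95% interval of its difference ran from -0.27 to 0.17. Mrpl49, which has no bacterial counterpart, read 7.69, 7.54, 7.59 and 7.12 in NCD and 7.20, 7.49, 7.50 and 7.84 in HFD. The groups overlapped over most of their ranges, with HFD 4 highest and NCD 4 lowest, and the interval of its difference ran from -0.30 to 0.35. Mrpl12, whose counterpart forms the mobile stalk that recruits translation factors and which also binds the mitochondrial RNA polymerase, had a difference of -0.095 with an interval from -0.37 to 0.18. 

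In the small subunit, Mrps15 had the biggest difference. It encodes the counterpart of a bacterial protein that binds the small ribosomal RNA early in assembly. Its log2 level was 8.50, 8.82, 8.49 and 8.50 in NCD and 8.07, 8.21, 8.16 and 8.35 in HFD. The groups did not overlap, and NCD 2 stood well above the other NCD arrays, which were within 0.01 of each other. NCD averaged 8.58 ± 0.16 (SD, n = 4), HFD averaged 8.20 ± 0.12 (SD, n = 4), and the difference was -0.38 ± 0.12 (SE), with an interval from -0.63 to -0.13 and a limma adjusted p of 0.412. Without NCD 2 and NCD 3 it was -0.30 (limma adjusted p = 0.664). The row spans chromosome 4 from 125724172 to 125732783 in the file.

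Mrps22, a small subunit protein found only in mitochondria and mutated in inherited respiratory chain disease of humans, read 9.49, 9.50, 9.37 and 9.30 in NCD and 8.87, 9.11, 9.13 and 9.20 in HFD. The groups did not overlap, and for this gene NCD 1 was as high as NCD 2. The difference was -0.34 ± 0.11 (SE, limma adjusted p = 0.485), and -0.32 without NCD 2 and NCD 3. Mrps6, the counterpart of bacterial S6, read 8.93, 9.17, 9.30 and 8.70 in NCD and 8.67, 8.66, 8.53 and 8.77 in HFD. HFD 4 lay above NCD 4, and the difference of -0.37 ± 0.13 (SE, limma adjusted p = 0.547) was -0.16 without NCD 2 and NCD 3.

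Mrps23, another protein found only in mitochondria, read 7.44, 7.80, 7.82 and 7.30 in NCD and 7.17, 7.26, 7.00 and 7.50 in HFD. NCD 2 and NCD 3 stood apart while NCD 1 and NCD 4 lay among the HFD arrays, and the difference was -0.36 ± 0.14 (SE, limma adjusted p = 0.617). Mrps28 and Mrps14 followed, at -0.33 and -0.27. Mrps28 read 7.74, 8.35, 8.52 and 7.82 in NCD and 7.75, 7.79, 7.67 and 7.91 in HFD. NCD 2 and NCD 3 stood far above 6 arrays that lay together, and its limma adjusted p was 0.701.

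Mrps2, the counterpart of bacterial S2, showed a small but even difference. It read 8.25, 8.32, 8.32 and 8.17 in NCD and 7.98, 8.11, 8.03 and 8.08 in HFD. Both groups were tight and did not overlap, and the difference was -0.215 ± 0.10 (SE, limma adjusted p = 0.699); in the methods' t-test it had the smallest adjusted p of the members, 0.475. Mrps12, the counterpart of the bacterial S12 protein of the decoding site, read 7.37, 7.66, 7.76 and 7.32 in NCD and 7.46, 7.25, 7.11 and 7.50 in HFD. HFD 1 and HFD 4 lay above NCD 1 and NCD 4, and the difference was -0.1975 ± 0.13 (SE, limma adjusted p = 0.815). Mrps21, the counterpart of bacterial S21, read 10.07, 10.24, 10.19 and 9.91 in NCD and 9.92, 9.73, 9.86 and 9.83 in HFD, with HFD 1 just above NCD 4 and a difference of -0.27 ± 0.11 (SE, limma adjusted p = 0.632).

 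The small subunit members with the highest differences were Mrps26 (0.02), Mrps17 (0.01), Mrps10 (-0.04) and Mrps36 (-0.05). Mrps26 read 6.72, 6.55, 6.75 and 6.50 in NCD and 6.69, 6.65, 6.28 and 6.97 in HFD, where the spread was wider. Mrps36 is now known as a subunit of the oxoglutarate dehydrogenase complex rather than of the ribosome. The Mrps36 row read 9.48, 10.09, 9.62 and 9.51 in NCD and 9.22, 9.61, 9.76 and 9.92 in HFD, with wide overlap.

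The 6 members with means under the olfactory 95th percentile were Mrpl20, Mrpl28, Mrpl43, Mrps11, Mrps17 and Mrps27. Their differences ran from -0.455 (Mrpl20) to 0.01 (Mrps17). Mrpl43 read 6.18, 6.54, 6.41 and 6.30 in NCD and 6.04, 6.21, 6.01 and 6.16 in HFD, overlapping only through HFD 2 and NCD 1, with a difference of -0.25 ± 0.11 (SE, limma adjusted p = 0.670). Mrps27 read 5.77, 5.77, 6.21 and 5.60 in NCD and 5.49, 5.59, 5.80 and 5.88 in HFD, with NCD 3 apart from the rest.

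**Figure D2:**
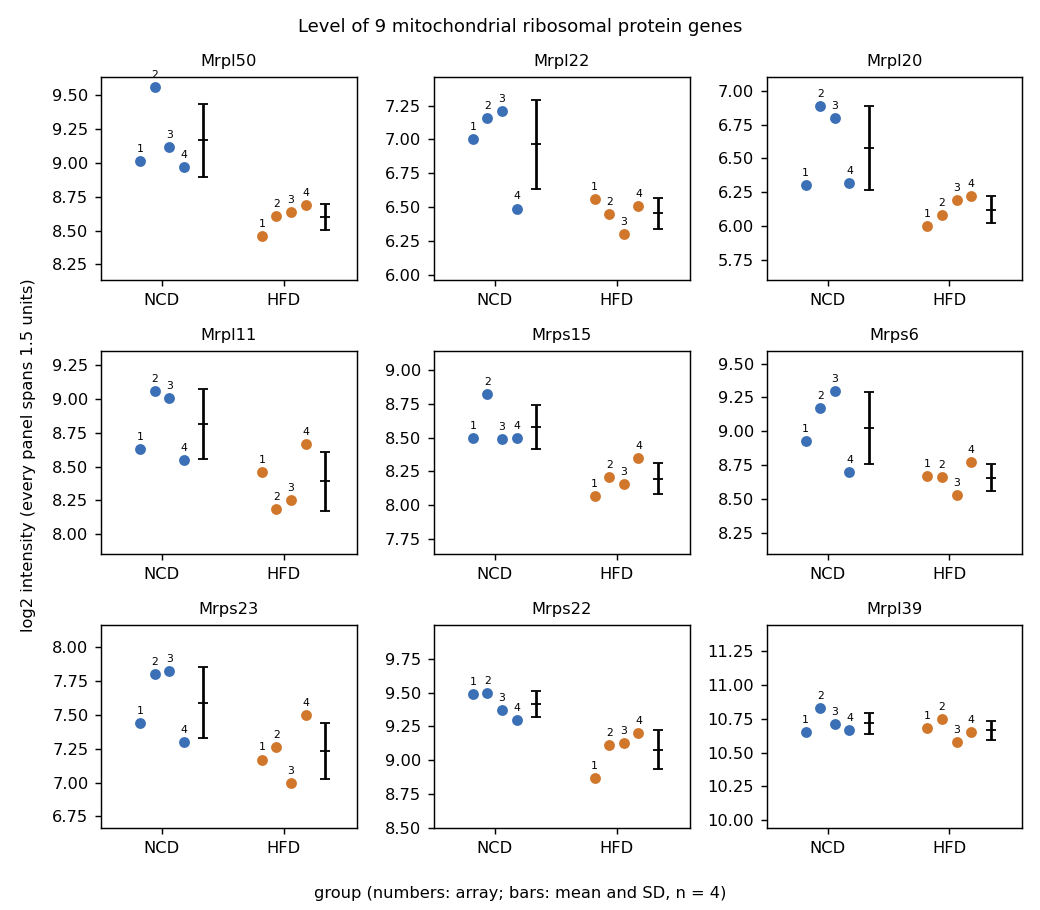
Log2 intensity on each array for the 4 large and 4 small subunit genes with the lowest differences and for Mrpl39, by group on the horizontal axis; numbers give the array, and bars the mean and SD (n = 4). Every panel spans 1.5 log2 units: Mrpl50, Mrpl20, Mrps15 and Mrps22 show no overlap, while Mrpl39 overlaps throughout.

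The 3 paralogues of bacterial S18 could be read apart. Mrps18a, whose protein sits in the large subunit despite its symbol, averaged 7.44 ± 0.13 (SD, n = 4) over the NCD arrays and 7.17 ± 0.08 (SD, n = 4) over the HFD arrays, and differed by -0.27 ± 0.11 (SE, limma adjusted p = 0.617) with no overlap. Mrps18b had a difference of -0.20 ± 0.12 (SE, limma adjusted p = 0.776), and Mrps18c one of -0.15 ± 0.13 (SE, limma adjusted p = 0.852), both with overlapping arrays. The intervals of all 3 share most of their range, from -0.51 at the lowest to 0.12 at the highest, and the differences between paralogues were not tested.

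The highest values of the members lay mostly on NCD 2 and NCD 3. For 67 of 75 members the highest of all 8 values was on one of those arrays (39 on NCD 3 and 29 on NCD 2, 1 of them a tie), and for 54 both lay above NCD 1 and NCD 4. Within HFD the highest array was HFD 4 for 54 members. The mean over the large subunit genes was 7.88, 8.13, 8.19 and 7.82 on NCD 1 to 4 and 7.72, 7.76, 7.76 and 7.91 on HFD 1 to 4. Over the small subunit genes it was 7.88, 8.04, 8.05 and 7.75 in NCD and 7.67, 7.725, 7.71 and 7.89 in HFD. Thus both NCD 1 and NCD 4 lay below HFD 4 for either subunit, NCD 1 only slightly. On each array the large subunit mean differed from the small subunit mean by -0.005 (NCD 1) to 0.135 (NCD 3).

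Set against NCD 2 and NCD 3 alone, the HFD arrays had a median difference of -0.35 over all 75 members, and against NCD 1 and NCD 4 alone one of -0.06. NCD 2 and NCD 3 were the highest arrays for most members, so this split, or leaving them out, shifts the difference by construction. With NCD 2 and NCD 3 left out, 49 of 75 members had a lower mean, the median was -0.05 in the large and -0.06 in the small subunit, and the median over genes above the olfactory 95th percentile was 0.02. Leaving out HFD 4, the highest HFD array for most members, likewise lowers the HFD means of those members by construction. With HFD 4 left out as well, 63 members had a lower mean. The medians were then -0.095 and -0.11, against -0.0017 over the genes above the olfactory 95th percentile. Without NCD 3 alone the medians were -0.12 for either subunit. Without NCD 1 and HFD 3, where the muscle markers were high, they were -0.24 (large) and -0.19 (small), and 71 members had a lower mean. NCD 2, NCD 3 and HFD 4 also had the widest spread of values. After all arrays were given the same median and spread, the medians were -0.14 and -0.15, and 67 members still had a lower mean. With quantiles made equal over genes they were -0.13 and -0.12. The part that array spread plays beyond these values was not tested.

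The members were also lower in HFD relative to the genes above the olfactory 95th percentile as a whole. The large subunit mean minus the mean of those 7629 genes was 0.085, 0.20, 0.19 and 0.02 in NCD and -0.055, -0.02, -0.08 and 0.01 in HFD, so the groups did not overlap, though NCD 4 and HFD 4 nearly met. For the small subunit it was 0.09, 0.11, 0.05 and -0.04 in NCD and -0.11, -0.06, -0.13 and -0.006 in HFD, where HFD 4 lay above NCD 4.

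**Figure D3:**
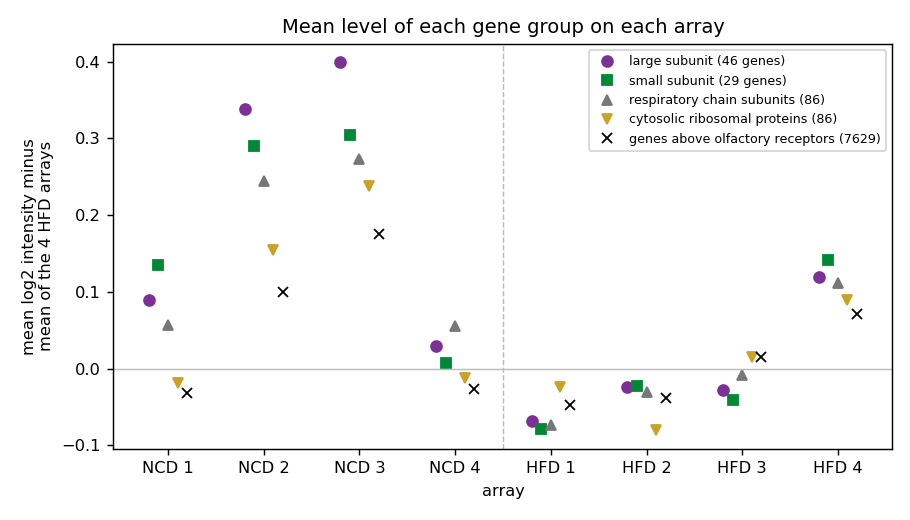
Mean log2 intensity on each array of 5 gene groups, each shown minus its own mean over the 4 HFD arrays. NCD 2 and NCD 3 stand highest for every group, and the large subunit (7.72 to 7.91 in HFD, up to 8.19 on NCD 3) moves furthest.

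**Figure D4:**
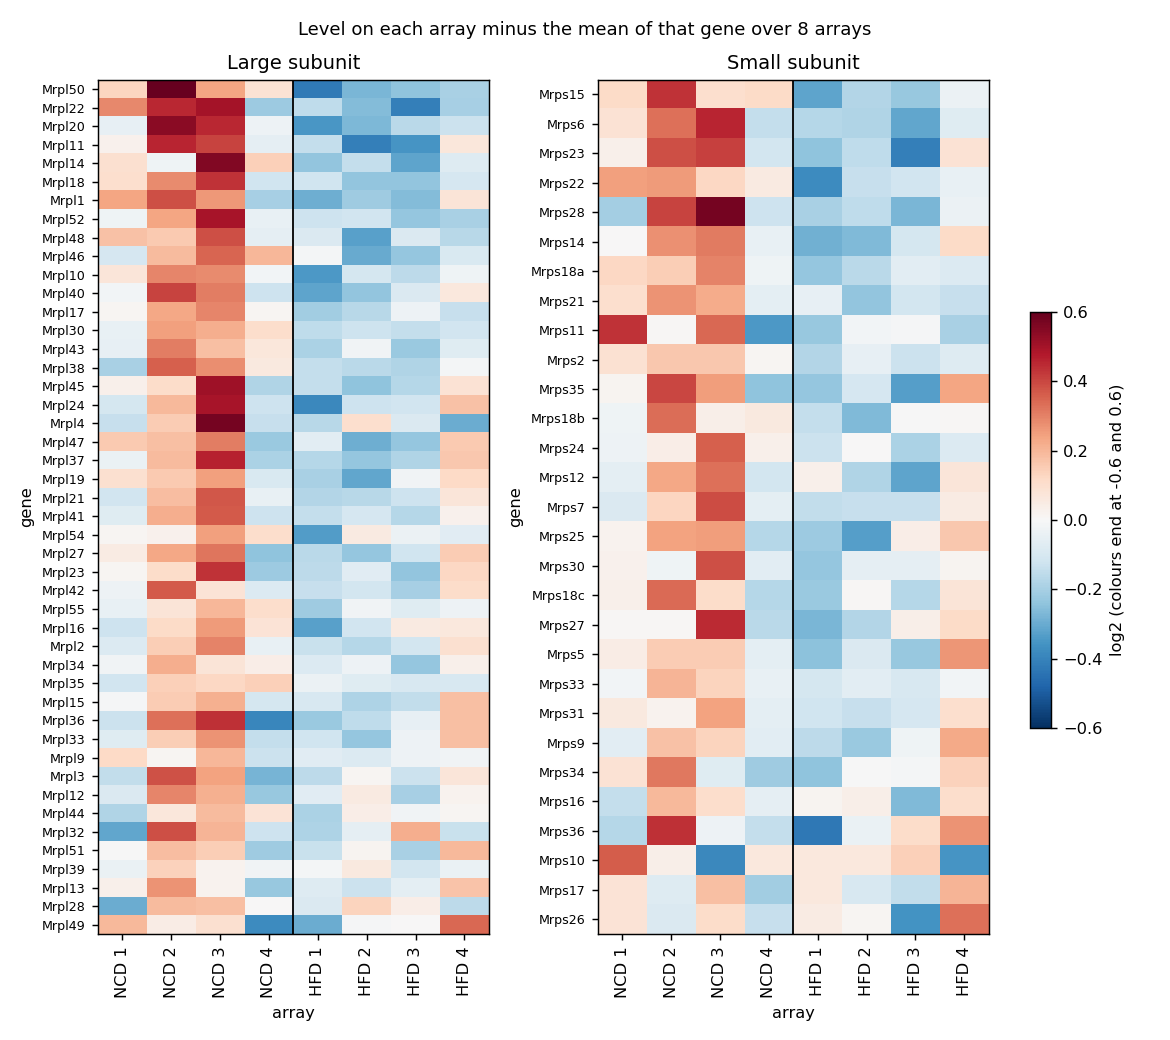
Level of each gene on each array minus that gene's mean over all 8 arrays (log2; red above, blue below, colours end at -0.6 and 0.6), genes ordered from the lowest difference at the top. The columns of NCD 2 and NCD 3 are red for most genes of either subunit, and HFD 4 is the reddest HFD column, being the highest of HFD for 54 of 75 genes.

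Genes grouped by the origin of their protein gave like values. The 48 members with a bacterial counterpart had a median difference of -0.1975, with 13 (27.1%) lower at an unadjusted limma p under 0.05 and 47 lower means. The 26 members found only in mitochondria had a median of -0.19, with 7 (26.9%) and 24. Over all genes 4.52% were lower at that p. Mrps36 belongs to neither class. Moving Mrps18a and Mrps30, whose proteins sit in the large subunit, to that subunit and leaving out Mrps36 gave medians of -0.20 over 48 large and -0.19 over 26 small subunit genes.

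Some rows may not read the gene itself. The row used lay on the chromosome of the RefSeq gene (assembly GRCm38.p6) for 71 of 75 members, and the exceptions were Mrpl27, Mrpl41, Mrpl51 and Mrps33. Their rows span 138 to 759 bases, much shorter than the rows on the RefSeq chromosome, and signal of a gene and of a near-identical copy elsewhere cannot be separated on this array type. For Mrpl51 the row used (chromosome 2, 121306722 to 121307367) differed by -0.06, and the row on the RefSeq chromosome (chromosome 6, 125142191 to 125144410) by -0.27 ± 0.10 (SE, limma adjusted p = 0.579 over all rows). For Mrpl41 these values were -0.195 and -0.01, for Mrpl27 -0.18 and -0.065, and for Mrps33 -0.14 and -0.12. Rows also disagreed in sign for Mrpl18, Mrpl47, Mrpl48 and Mrps30. The third Mrpl48 row, which spans 1873 bases and averaged 4.975 in NCD and 5.26 in HFD, differed by 0.285 against -0.33 for the row used, and both of its means are below the olfactory 95th percentile. Over the 71 members whose row lay on the RefSeq chromosome, 68 had a lower mean and the median was -0.1975.

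Proteins of the mitochondrial ribosome with other symbols all had the same sign. The 7 measured had lower means in HFD, with a median of -0.16 and 0 past the threshold. At an unadjusted limma p under 0.05 stood 1 gene (14.3%, against 4.52% of all genes for lower ones). That gene was Ict1 (current symbol Mrpl58), a hydrolase built into the large subunit that frees stalled chains. It read 7.46, 7.47, 7.70 and 7.30 in NCD and 7.09, 7.07, 7.12 and 7.34 in HFD, a difference of -0.33 ± 0.12 (SE, limma adjusted p = 0.547), with HFD 4 above NCD 4. Ptcd3, which binds ribosomal RNA in the small subunit, differed by -0.27 (limma adjusted p = 0.706), Dap3, a GTP-binding protein of the small subunit, by -0.15 (0.871), and Gadd45gip1, of the large subunit, by -0.09 (0.926).

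Genes that act with the mitochondrial ribosome were counted in the same way, and 0 passed the threshold in any of the lists. For comparison, 4.52% of all genes were lower at an unadjusted limma p under 0.05, and 8.21% of those above the olfactory 95th percentile. Lower means made up 52.5% and 63.7% of these. The lists also differed in level. Their NCD mean was 6.80 for assembly factors, 6.90 for synthetases and 7.23 for transcription and DNA maintenance genes, against 7.97 for the 75 members. It was 7.835 for translation factors and 8.72 for import genes. The part of level in the medians of these lists was not tested. Of 14 measured translation factors all had lower means (median -0.13), and 0 had an unadjusted limma p under 0.05. Tufm, the elongation factor that brings transfer RNA, differed by -0.29 ± 0.15 (SE, limma adjusted p = 0.723), on a row annotated to chromosome 8 while the RefSeq gene lies on chromosome 7. Lrpprc, which stabilises mitochondrial messages, differed by -0.24 ± 0.12 (SE, limma adjusted p = 0.713). The 17 mitochondrial aminoacyl-tRNA synthetases had a median of -0.04, with 12 lower means (70.6%). At an unadjusted limma p under 0.05 stood 1 gene (5.88%, near the share of all genes). It was Hars2, which charges histidine (-0.315, limma adjusted p = 0.593).

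Mitochondrial transcription and DNA maintenance genes had a median of -0.02 over 14 measured. Of them, 2 (14.3%, against 4.52% of all genes) were lower at an unadjusted limma p under 0.05. Tfb1m, the methyltransferase that modifies the small ribosomal RNA of mitochondria, read 7.40, 7.24, 7.55 and 7.12 in NCD and 6.56, 6.78, 6.89 and 7.10 in HFD. The groups did not overlap, by a margin of 0.02 between NCD 4 and HFD 4, and the difference was -0.495 ± 0.14 (SE, limma adjusted p = 0.291). Tfb2m, a transcription initiation factor, differed by -0.33 (limma adjusted p = 0.625), on a row annotated to chromosome 12 while the RefSeq gene lies on chromosome 1.

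Assembly factors of the mitochondrial ribosome had a median of 0.025 over 16 measured, with 7 lower and 9 higher means. For 1 of them (6.25%, against 1.33% of all genes) every HFD array lay above every NCD array. Ddx28, a helicase of large subunit assembly, differed by -0.28 (limma adjusted p = 0.673), and Ngrn, which serves the large ribosomal RNA, by -0.21 (0.757). Both Ddx28 and Ngrn had levels below the olfactory 95th percentile. Protein import genes, whose products carry nuclear-encoded proteins into the organelle, had a median of -0.18 over 22. Of them, 18 had lower means and 4 (18.2%, against 4.52% of all genes) were lower at an unadjusted limma p under 0.05. Timm8b, a chaperone of the intermembrane space, differed by -0.37 (limma adjusted p = 0.520) and Tomm5, of the outer membrane channel, by -0.36 (0.573).

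The 86 nuclear-encoded respiratory chain subunits, most of which assemble with products of the mitochondrial ribosome, had a median of -0.16 with 78 lower means, and 18.6% had an unadjusted limma p under 0.05 and were lower. The 86 cytosolic ribosomal proteins, which make all other proteins of the cell, had a median of -0.075 with 67 lower means, and 4.65% were lower at that p. After arrays were given the same median and spread, these medians were -0.05 and 0.006, while those of the mitochondrial ribosome were -0.14 (large) and -0.15 (small). Under the other scalings the respiratory median lay closer to them: it was -0.10 with cyclic loess (large -0.13, small -0.12), -0.105 with equal quantiles (-0.13 and -0.12) and -0.108 with arrays centred on genes above olfactory receptors (-0.14 and -0.13). Without NCD 2 and NCD 3 it was -0.06, beside -0.05 and -0.06. The differences between these lists were not tested. Sdhd, a membrane anchor of succinate dehydrogenase, differed by -0.47 (limma adjusted p = 0.320) and the NADH dehydrogenase subunit Ndufa2 by -0.46 (0.414); among cytosolic proteins Rps27l differed by -0.34 (0.596) and Rps14 by -0.30 (0.626). No row of the table carried a symbol with the mt- prefix, so the messages that this ribosome translates were not analysed here.

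**Figure D5:**
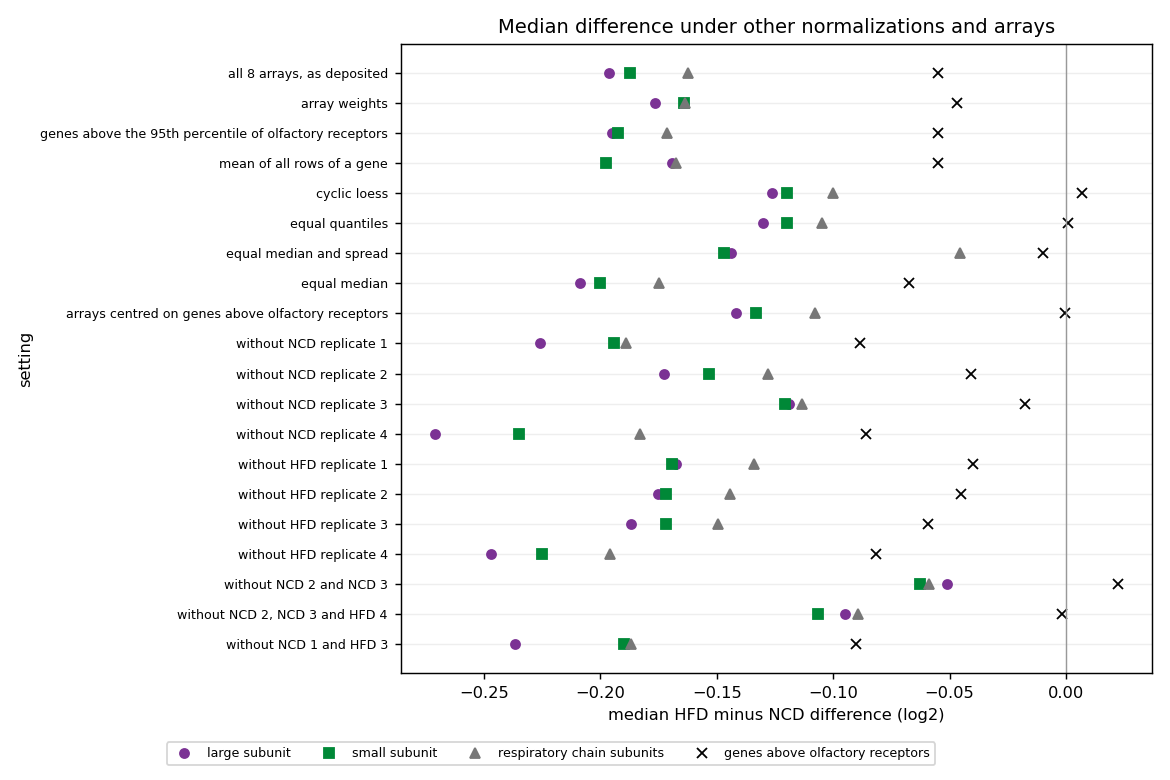
Median HFD minus NCD difference (log2, horizontal axis) of 4 gene groups under each normalization or set of arrays (vertical axis). Medians of both subunits stay below 0 in every setting shown, nearest to 0 without NCD 2 and NCD 3 (-0.05 and -0.06), where the genes above olfactory receptors stand at 0.02.

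Many members start back to back with another gene. A gene on the opposite strand started within 1000 bases upstream for 25 of 66 members (37.9%), against 11.4% of all 27025 genes with a window. In 1 case both genes were members: Mrpl46, of the large subunit and found only in mitochondria, and Mrps11, of the small subunit with a bacterial counterpart, start 42 bases apart on chromosome 7. The Mrps11 window, chr7:78782881-78783180 (plus strand), is printed next. Only part of it is shared with the Mrpl46 window, chr7:78783040-78783339 (minus strand), which holds no match. Capitals mark a YY1 match on the other strand, at -108 from the Mrps11 start and outside the Mrpl46 window.
Mrps11: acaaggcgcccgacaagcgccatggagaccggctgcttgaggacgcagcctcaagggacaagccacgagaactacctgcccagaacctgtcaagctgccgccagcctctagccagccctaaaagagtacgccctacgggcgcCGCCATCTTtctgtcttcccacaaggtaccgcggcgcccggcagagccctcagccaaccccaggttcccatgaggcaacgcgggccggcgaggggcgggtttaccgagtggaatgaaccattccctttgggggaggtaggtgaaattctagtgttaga
Mrpl46 read 7.04, 7.33, 7.49 and 7.34 in NCD and 7.13, 6.84, 6.91 and 7.05 in HFD, with HFD 1 above NCD 1, and differed by -0.32 ± 0.12 (SE, limma adjusted p = 0.585). Mrps11 read 5.87, 5.44, 5.78 and 5.09 in NCD and 5.21, 5.42, 5.43 and 5.24 in HFD, all below the olfactory 95th percentile, and differed by -0.22 ± 0.15 (SE, limma adjusted p = 0.823). The arrays of either gene overlapped between groups. Mrpl50 starts 93 bases from Zfp189, a zinc finger gene, which differed by -0.03 (limma adjusted p = 0.982) where Mrpl50 differed by -0.565. 

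In the authors' deposited table, which gives a p and a signed fold for diet per row, 17 of the 75 member rows had a p of at most 0.05, 72 had a fold in the lower direction and 0 reached 1.5-fold. Those p-values are rounded, so one printed as 0.05 may lie slightly above it. The shares of all rows at that p or with a lower fold were not counted here. The 17 and the 72 therefore have no background beside them, and neither is read as a result about the members. The strongest fold in that table was -1.48, for Mrpl50. The p in the authors' deposited table need not come from the equal-variance form used above, so the count of 17 is not set against the 20 given there.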

How the data were processed

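The deposited log2 intensities came from 8 Affymetrix Mouse Gene 1.0 ST arrays. Affymetrix Power Tools, named in the submitters' processing notes and in the design text, served the authors for log transformation and quantile normalization. The deposited arrays still differed in median (5.91 to 5.99) and spread. The sources used here do not name the summarization, the background correction or the genome build. Both deposited tables held the same 25254 rows, with 100% of values identical. The authors' deposited p-value and signed fold score per row were only copied. Differences, HFD minus NCD, were fitted by lmFit and eBayes of limma 3.58.1 under R 4.3.3 (two-sided, prior of 8.87 degrees of freedom) over 21759 genes, tested on simulated data. Errors beside differences are moderated standard errors (median 0.127). Arrays have no count depth, so their number limits the precision. Array correlations ran from 0.976 to 0.991 with at most 2.09% identical values, so no array was a duplicate.

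The members, gene lists and alternatives were chosen with earlier results of these data known. Lists are described by counts and medians only. Named members were, in each subunit, the 6 lowest and 4 highest differences, the 2 highest and 2 lowest levels, the Mrps18 paralogues, and genes whose rows disagreed in sign; of each list, the 2 genes of smallest p. Same-numbered arrays did not deviate together (correlations -0.165 to 0.002 over genes), so no block was used. Mrps2, Mrps12, Mrpl10, Mrpl12, Mrpl17, Mrpl27, Mrpl41, Mrpl45, Mrpl46, Mrpl51, Mrpl52, Dap3, Gadd45gip1 and Zfp189 were chosen after their values were seen. Alternatives were other tests, scalings and filters, and leaving out arrays.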

Additional observations from a re-analysis of the deposited data

Results flagged for a closer look

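Of 68 groups of 4 arrays checked (32 named members and the mean of each subunit, in each diet), 2 held an array far from the others, where chance alone flags about 1 in 20. Mrps15 stood at 8.82 on NCD 2, with the nearest NCD array at 8.50, a gap of 0.97 of the group's range; without NCD 2 its difference was -0.30. Mrps10 stood at 6.13 on HFD 4, with the nearest HFD array at 6.55, a gap of 0.84 of the range; without HFD 4 its difference was 0.07.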

How the results depend on the processing

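Over the 32 named members, 653 of 698 alternative values kept their direction and side of the threshold, 1 passed it and 44, of 9 genes and none called, changed sign. Large subunit members past the threshold numbered 0 to 1 over the fits without 1 array each (Mrpl22 without NCD 4), and small subunit members 0. Leaving out 1 array gave medians of -0.27 to -0.12 (large) and -0.235 to -0.12 (small), highest without NCD 3, and leaving out both NCD 2 and NCD 3 gave -0.0512 and -0.0625; with NCD 2, NCD 3 and HFD 4 out, they were -0.095 and -0.11. Setting scale or quantiles another way gave -0.21 to -0.13 (large) and -0.20 to -0.12 (small), with 66 to 73 members lower. Counts over all genes (2 higher, 29 lower) were 0 and 0 in the methods' t-test, where 941 lower genes had an unadjusted p under 0.05, 10 and 60 with a variance trend and robust prior, and 6 and 49 over genes above the olfactory 95th percentile. Higher genes numbered 1 with the mean of all rows, 8 with cyclic loess, 4 with equal quantiles, 1 with equal medians and 1 with centring on genes above olfactory receptors. They numbered 1 without NCD 2 and NCD 3 (2 lower) and 0 without HFD 4 as well (1 lower). Leaving out 1 array gave 1 to 5 higher and 19 to 36 lower genes, 19 without HFD 1. The same-numbered arrays share only a number: with the replicate block 4 higher and 32 lower genes passed. In that fit 19 members, all lower, had an unadjusted p under 0.05, where 4.32% of all genes were lower at that p. The cause of these changes was not tested. Differences that changed sign are given in log2. Under cyclic loess, equal quantiles and equal median and spread in that order, Mrpl13 was 0.0322, 0.0261 and 0.0014, Mrpl39 0.013, 0.0141 and 0.0688, and Mrps36 0.0264, 0.0097 and 0.0376. Centring on genes above olfactory receptors, chosen after seeing the data, gave 0.007 for Mrpl13, 0.017 for Mrpl28, 0.0045 for Mrpl39, 0.0145 for Mrps10 and 0.007 for Mrps36. Equal medians gave -0.0025 for Mrps17. Without NCD 2 and NCD 3, Mrpl13 was 0.075, Mrpl28 0.13, Mrpl39 0.005, Mrps27 0.005 and Mrps36 0.13, and without HFD 4 as well 0.01 for Mrpl13, 0.18 for Mrpl28, 0.01 for Mrpl39, -0.0083 for Mrpl49, -0.07 for Mrps26 and 0.035 for Mrps36. Without NCD 1 and HFD 3, Mrps10 was 0.02. Leaving out 1 array gave -0.13 to 0.035 for Mrpl13, -0.14 to 0.02 for Mrpl28, -0.10 to 0.125 for Mrpl49, -0.175 to 0.075 for Mrps10, -0.0575 to 0.0725 for Mrps17, -0.09 to 0.14 for Mrps26 and -0.145 to 0.0908 for Mrps36.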
